A study of Mus musculus with 7 samples.

Results

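Immediate early response genes are a set of 10 genes in mouse liver, Egr1, Fos, Jun, Junb, Jund, Ier2, Ier3, Btg2, Klf6 and Dusp1, and each of the 10 was found by its symbol among the 23366 gene rows of the expression tables. The livers were those of inbred C57BL/6 mice, and RNA was sequenced at 3 months (n = 4) and 21 months (n = 3). No genotype, treatment, sex, feeding state, time of collection or interval from death to freezing is given for either age, and the labels do not state whether each liver is a different mouse. The p-values therefore refer to the spread among these libraries, part or all of which could be technical. The comparison asks how the 2 ages differ in these transcripts and how far samples of the same age differ from each other.

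Immediate early genes are transcribed within minutes of a stimulus, from factors already present in the cell, and their short-lived mRNAs decay again soon afterwards. Growth factors, stress and injury reach them through MAP kinases and through SRF, its ternary complex partners and CREB, which bind their promoters. In liver they are known for their burst after partial hepatectomy and after ischaemia or cell isolation, so their level in a bulk sample can record the handling of the tissue as well as its state. Fos and the Jun proteins pair to form the AP-1 transcription factor, Egr1 and Klf6 are zinc finger transcription factors, Btg2 restrains proliferation, Dusp1 is a phosphatase that switches MAP kinases off, and Ier2 and Ier3 are small early response proteins.

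Of the 10 genes, Egr1 was the one that differed between the ages past the threshold, and it was lower at 21 months. Counts were sufficient to test 8 of the 10, and 1 of the 8 was lower, 0 were higher (in DESeq2 too) and 7 did not pass (edgeR quasi-likelihood test, Benjamini-Hochberg adjusted over 11251 genes, threshold 0.05). Over all genes tested, 11.3% were called in either direction, 5.47% higher and 5.86% lower at 21 months, so 1 of 8 is near the background. At an unadjusted p under 0.05 in the same fit there were 2, Egr1 and Jund. The share of all genes at that unadjusted threshold is not given, so these 2 have no background beside them. The median log2 fold change of the 8 was -0.13, beside -0.0015 over all genes tested. Egr1 was also the only one of the 8 whose CPM values (read counts scaled by library) did not overlap between the ages, against 24.2% of all genes tested, 11.3% higher and 12.8% lower.

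Levels can be compared between genes on the TPM scale, which is corrected for transcript length. Jund stood first in each of the 7 libraries, at 51.6 to 80.7 TPM, and made up on average 35.3% of the summed TPM of the 10 genes at 3 months and 41.7% at 21 months. Ier2 followed at 24.6 to 35.7 TPM, then Dusp1 at 15.7 to 43.0 and Junb at 13.3 to 22.0. Jun lay at 8.45 to 12.9 TPM, Btg2 at 4.59 to 7.23 and Klf6 at 1.44 to 3.74. Fos and Ier3 were at the bottom, at 0.14 to 1.03 and 0.24 to 1.37 TPM. The ranges of Ier2 and Dusp1, of Dusp1 and Junb and of Fos and Ier3 overlapped, so the order within those pairs was not fixed across libraries. Egr1 was the fifth by mean level at 3 months (11.6 ± 4.70 TPM, SD, n = 4) and the eighth at 21 months (2.05 ± 1.05 TPM, SD, n = 3), while no other gene moved by more than 1 place in the order of means.

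The promoter table of RefSeq (build GRCm38.p6) held 8 of the 10 genes. It had no entry for Egr1 and Ier2, so their promoters were not searched. The 250 bases before the start were searched on both strands for TGACGTCA, the full site of CREB, and for its core TGACGT, which each full site contains. The full site lay before Btg2 and Dusp1, and in 1.55% of all 32851 promoters of that length. The core lay before those genes and Fos, and in 6.47% of all promoters. Exact matches to the AP-1 site TGANTCA and the CArG box of SRF were in 0 of the 8, and in 6.75% and 1.47% of all. Sites more than 250 bases before the start and looser matches were not searched for. TATAAA was found in Fos (12.4% of all) and the EGR site GCGNGGGCG in Btg2 (4.7% of all). These are matches of letters and say nothing of binding in these livers. The 3 promoters with a CREB match are shown because it was the searched site found in the most of these genes. GRCm38.p6 is a later build than the mm9 named for the expression tables, and the coordinates are those of RefSeq. Each runs 5′ to 3′ over the 200 bases before the start, with matches to TGACGT on either strand in capitals. Dusp1 is at chr17:26508473-26508672 on the minus strand, Btg2 at chr1:134079156-134079355 on the minus strand and Fos at chr12:85473690-85473889 on the plus strand.
Dusp1: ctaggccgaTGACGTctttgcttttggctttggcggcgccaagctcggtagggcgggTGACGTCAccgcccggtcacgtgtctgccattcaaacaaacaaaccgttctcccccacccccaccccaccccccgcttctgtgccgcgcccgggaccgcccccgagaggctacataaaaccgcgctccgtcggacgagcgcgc
Btg2: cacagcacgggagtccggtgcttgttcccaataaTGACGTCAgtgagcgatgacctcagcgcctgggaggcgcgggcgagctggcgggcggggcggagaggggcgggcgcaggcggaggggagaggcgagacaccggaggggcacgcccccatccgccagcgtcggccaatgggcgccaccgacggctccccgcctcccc
Fos: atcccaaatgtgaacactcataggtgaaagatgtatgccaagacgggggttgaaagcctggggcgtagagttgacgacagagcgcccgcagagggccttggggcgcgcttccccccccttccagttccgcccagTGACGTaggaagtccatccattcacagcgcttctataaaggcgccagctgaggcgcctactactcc
The matches begin 191 and 143 bases before the start in Dusp1, 166 in Btg2 and 66 in Fos. Of these 3 genes, Fos had too few counts to test, and neither Btg2 nor Dusp1 passed the test between the ages.

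Libraries held 4724687 to 11143125 expected counts, of which the 10 genes took 925 to 2272. Values below are CPM, read counts scaled to 1e+06 per library with TMM factors, unless TPM is named, and a change is 21 months minus 3 months on the log2 scale. In this bulk tissue, fewer cells of a type and less RNA per cell cannot be told apart. Albumin (Alb), the defining hepatocyte transcript, stood at 28740 to 53670 CPM, so the samples carry the signature of the labelled tissue.

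Egr1 encodes a zinc finger factor that is induced through ERK signalling and SRF. Its level was 10.0, 14.5, 25.3 and 23.2 CPM in 3-month replicates 1 to 4, from 55, 169, 125 and 143 counts. At 21 months it was 2.27, 4.61 and 2.02 CPM in replicates 1 to 3, from 23, 33 and 17 counts. Even the lowest young library was above the highest old one, and the young group itself spread 2.52-fold from lowest to highest. The mean fell from 18.3 ± 7.20 to 2.97 ± 1.43 CPM (SD), a log2 fold change of -2.64 ± 0.42 (SE; 95% interval -3.60 to -1.68; edgeR adjusted p = 0.00693), or 6.24-fold. With each library left out in turn the fall was 5.36-fold to 8.21-fold, and each of the 7 fits called it (edgeR adjusted p = 0.002 to 0.0472, the largest without 21-month replicate 1). The median shortfall of RSEM's effective length below full gene length was 34.4 to 38.8 bases at 3 months. It was 35.4, 30.9 and 21.4 bases in 21-month replicates 1, 2 and 3, and what sets it was not tested. With this shortfall as a covariate, the log2 fold change of Egr1 was -2.77 ± 0.62 (SE) and the call was lost (edgeR adjusted p = 0.0724).

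**Figure D1:**
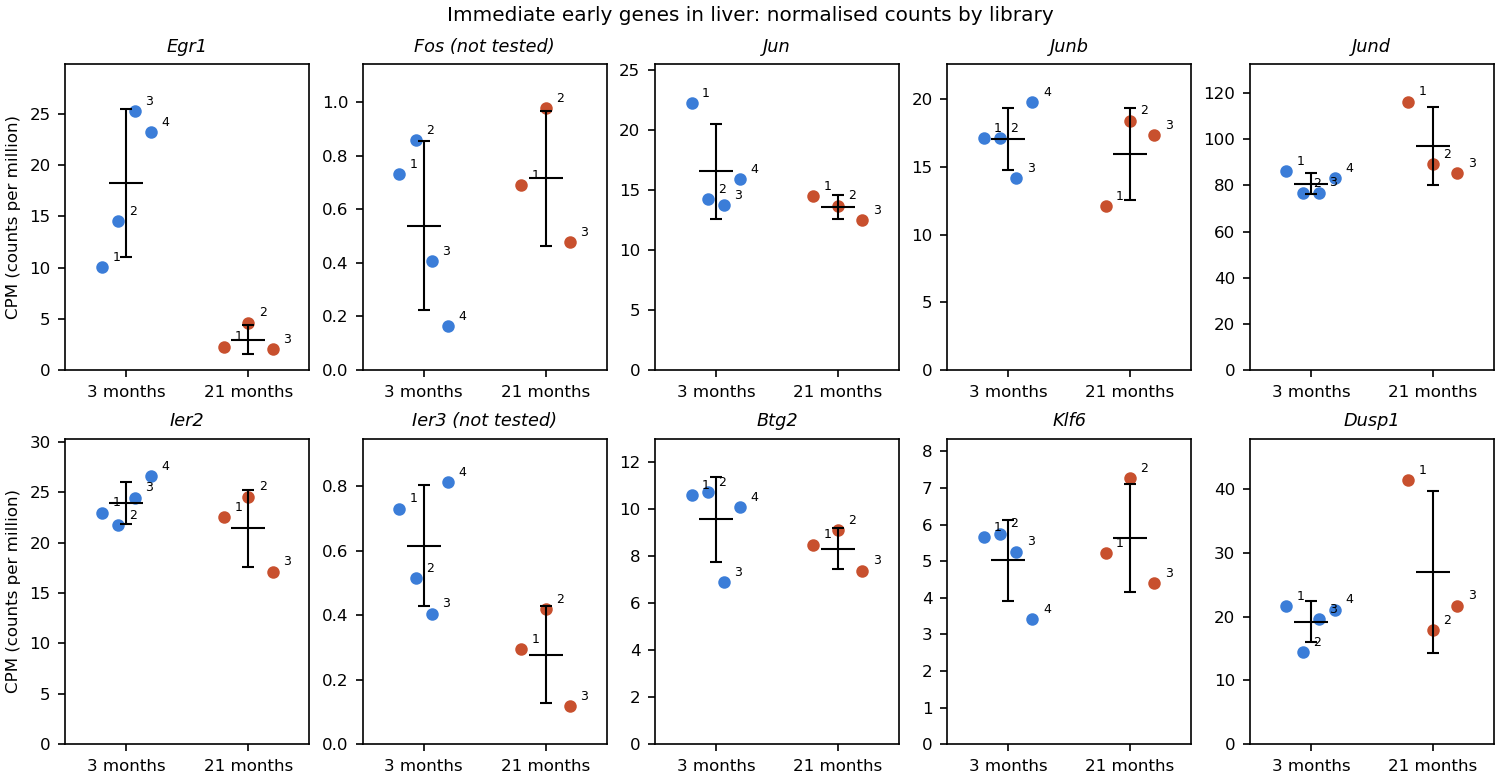
Level of each of the 10 genes in CPM (vertical axis, from 0) by age (horizontal axis), with 1 point per library numbered by replicate and black bars for the mean ± SD (n = 4 at 3 months, n = 3 at 21 months). The 3-month libraries of Egr1 lie at 10.0 to 25.3 CPM and those of 21 months at 2.02 to 4.61, without overlap, whereas the ages overlap for Jun, Junb, Jund, Ier2, Btg2, Klf6 and Dusp1; Fos and Ier3 had too few counts to test.

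Among the AP-1 genes, none of the 3 Jun genes passed the test. Jun, the main partner of Fos, was at 22.3, 14.2, 13.8 and 15.9 CPM in 3-month replicates 1 to 4 and at 14.5, 13.7 and 12.5 CPM in 21-month replicates 1 to 3. Its first 3-month library stood above the others, and the rest of the young values lay among or just above the old ones (log2 fold change -0.28 ± 0.17 SE, edgeR adjusted p = 0.320). Junb, which can replace Jun in the dimer and often opposes it, was at 17.2, 17.2, 14.2 and 19.8 CPM at 3 months and 12.1, 18.4 and 17.4 CPM at 21 months, the lowest library being old and the highest young. Its log2 fold change was -0.11 ± 0.16 (SE, edgeR adjusted p = 0.719), with a sign that turned on the TPM scale (0.01) and without 21-month replicate 1 (0.06).

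Jund is the most constitutive of the Jun genes, and its protein is abundant in resting cells. Its young libraries gave 86.1, 76.8, 76.9 and 83.1 CPM (replicates 1 to 4) and its old ones 116, 89.2 and 85.3 CPM (replicates 1 to 3). Only the lowest old library reached into the young range, and on the TPM scale the ages did not overlap, with 51.6 to 55.5 TPM at 3 months and 64.0 to 80.7 TPM at 21 months. The share of all genes without overlap was 24.2% on the CPM scale and is not given on the TPM scale. The log2 fold change was 0.27 ± 0.11 (SE; 95% interval 0.03 to 0.51), with an unadjusted p of 0.0324 in edgeR's fit over all genes and an edgeR adjusted p of 0.144. It was positive in each of 18 alternative fits and called in 0 of them (adjusted p = 0.0941 to 0.473). On the TPM scale it was 0.37 (limma adjusted p = 0.112), where the median of all genes itself lay at 0.11.

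Fos RNA was close to the detection floor in every library. It had 4, 10, 2 and 1 counts in 3-month replicates 1 to 4 and 7, 7 and 4 counts in 21-month replicates 1 to 3, where 3 counts are 0.257 to 0.607 CPM by library. Summed over the libraries of an age this was 17 against 18 counts, a ratio of 1.16 (95% exact counting interval 0.565 to 2.40, counting error only). A difference within that interval was not detectable at this depth. With no filter on low counts, the log2 fold change of Fos was 0.26 ± 0.60 (SE, edgeR adjusted p = 0.855).

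Ier2 was the second by mean TPM at both ages, Ier3 had too few counts to test, and Ier2 was not called. Ier2, a small nuclear protein of the early response, was at 23.0, 21.7, 24.5 and 26.6 CPM at 3 months and at 22.6, 24.6 and 17.1 CPM at 21 months. Its old libraries lay inside the young range apart from replicate 3, the lowest of the 7 (log2 fold change -0.16 ± 0.14 SE, edgeR adjusted p = 0.514). Ier3, a stress-induced regulator of cell survival, had 4, 6, 2 and 5 counts at 3 months and 3, 3 and 1 at 21 months. Its sums of 17 and 7 counts give a ratio of 0.452 (95% exact counting interval 0.159 to 1.15), and the fit with no filter gave -1.12 ± 0.72 (SE, edgeR adjusted p = 0.421).

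Btg2, a p53-inducible antiproliferative gene, was at 10.6, 10.7, 6.88 and 10.1 CPM in 3-month replicates 1 to 4 and at 8.47, 9.08 and 7.37 CPM in 21-month replicates 1 to 3. Young replicate 3 was the lowest of all 7, below each old library, and the others at 3 months were above the old ones (log2 fold change -0.22 ± 0.18 SE, edgeR adjusted p = 0.473). Klf6, a Krüppel-like factor induced in liver injury, was at 5.66, 5.75, 5.26 and 3.41 CPM and at 5.22, 7.26 and 4.40 CPM in the same order. The highest library was old and the lowest young, with the others mixed, and the log2 fold change of 0.14 ± 0.24 (SE, edgeR adjusted p = 0.764) turned to -0.0015 without 3-month replicate 4 and to -0.05 without 21-month replicate 2.

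Dusp1 dephosphorylates MAP kinases and so closes the loop that induces these genes. It was at 21.7, 14.5, 19.6 and 21.1 CPM in 3-month replicates 1 to 4 and at 41.5, 17.9 and 21.8 CPM in 21-month replicates 1 to 3. A single old library, replicate 1 with 421 counts, stood far above the other 6, which lay together at 14.5 to 21.8 CPM. The log2 fold change was 0.53 ± 0.31 (SE, edgeR adjusted p = 0.330), and it was 0.07 ± 0.16 (SE, edgeR adjusted p = 0.809) without that library. Jund was highest in the same library, and its log2 fold change was 0.11 ± 0.10 (SE, edgeR adjusted p = 0.473) without it. Endothelial and macrophage markers were at their lowest in that library: the summed level of 10 endothelial markers was 128 CPM against 165 to 283 in the others, and that of 10 Kupffer cell and macrophage markers 163 CPM against 266 to 475. Stellate markers were not, at 275 CPM against 253 to 424, nor bile duct markers, at 31.8 CPM against 29.2 to 46.9. The adipose list had its highest sum there, 4862 CPM against 2522 to 3703. Nearly all of that sum was Car3, at 4857 CPM there and 2522 to 3701 CPM in the others. The rest of the list, Adipoq, Plin1, Lep, Retn and Cfd, was at most 2.96 CPM per gene there. Each of them was higher in 3-month replicate 1. The part of these markers in the levels of Dusp1 and Jund was not tested.

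**Figure D2:**
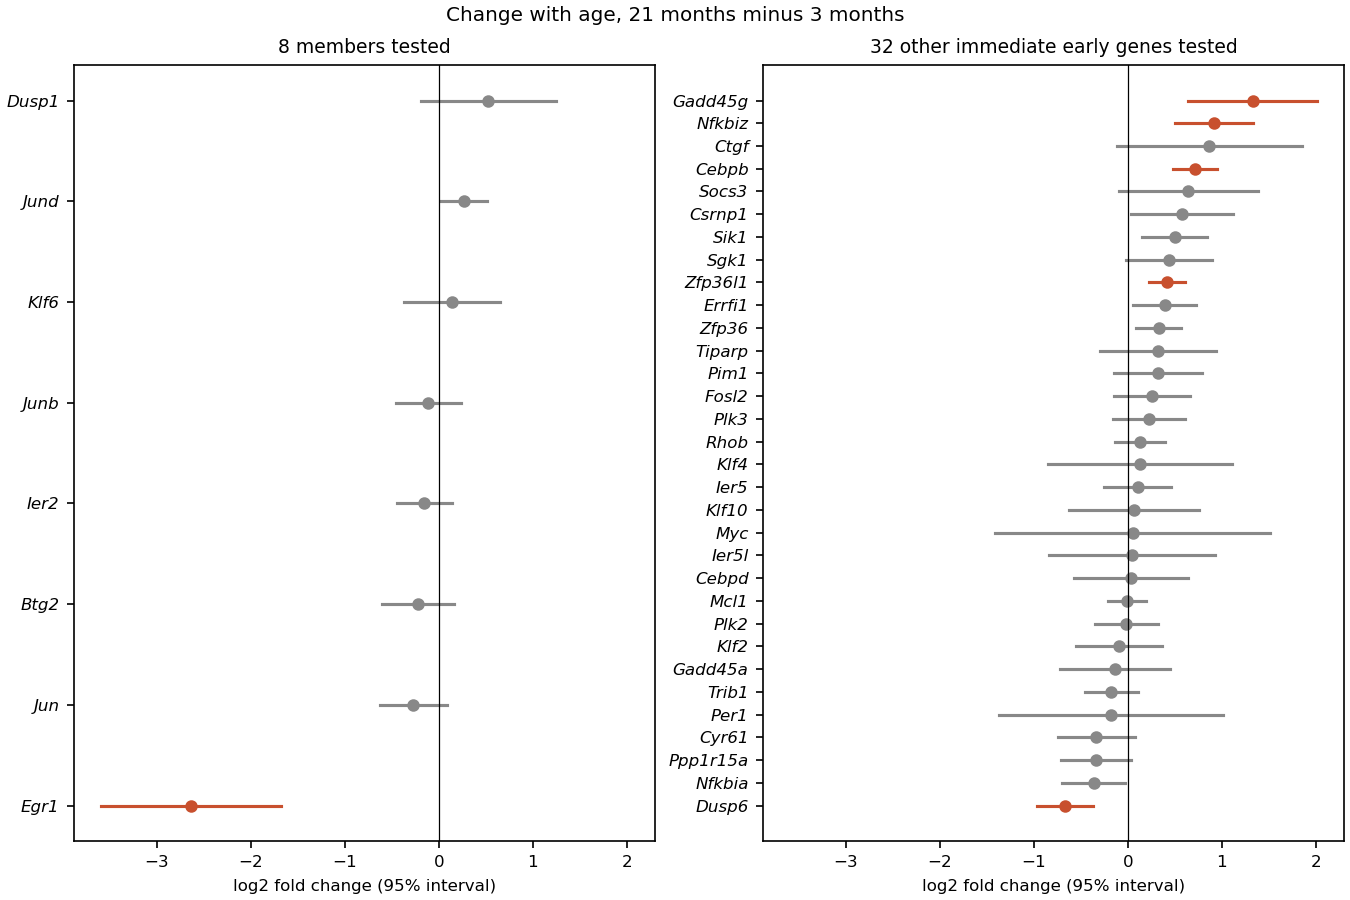
Log2 fold change, 21 months minus 3 months (horizontal axis), with its 95% interval for the 8 genes tested (left) and for 32 other immediate early genes (right), where red marks an edgeR adjusted p under 0.05 and grey the rest. Egr1 lies at -2.64, apart from the other 7 on the left at -0.28 to 0.53, and 4 genes on the right were called higher and Dusp6 lower.

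The spread between libraries of one age differed widely among these genes. As the SD of log2(CPM + 0.5) about the age means, it was 0.58 for Egr1 and 0.44 for Dusp1, at percentiles 97.3 and 91.7 of all genes tested. Klf6 followed at 0.33 (percentile 80.5), then Junb and Jun at 0.25 each (65.7 and 65.3), Btg2 at 0.24 (63.4), Ier2 at 0.19 (49.2) and Jund at 0.16 (37.7). The median of the 8 was 0.25 and that of all genes 0.20, and 6 of the 8 were above the latter. Since SD on the log scale grows as counts fall, the biological coefficient of variation from edgeR, which allows for counting noise, was also taken: it was 0.32 for Egr1 (percentile 97.9) and 0.27 for Dusp1 (95.7), against a median of 0.13 over all genes. Without 21-month replicate 1 the SD of Dusp1 was 0.25 and that of Egr1 0.63.

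**Figure D3:**
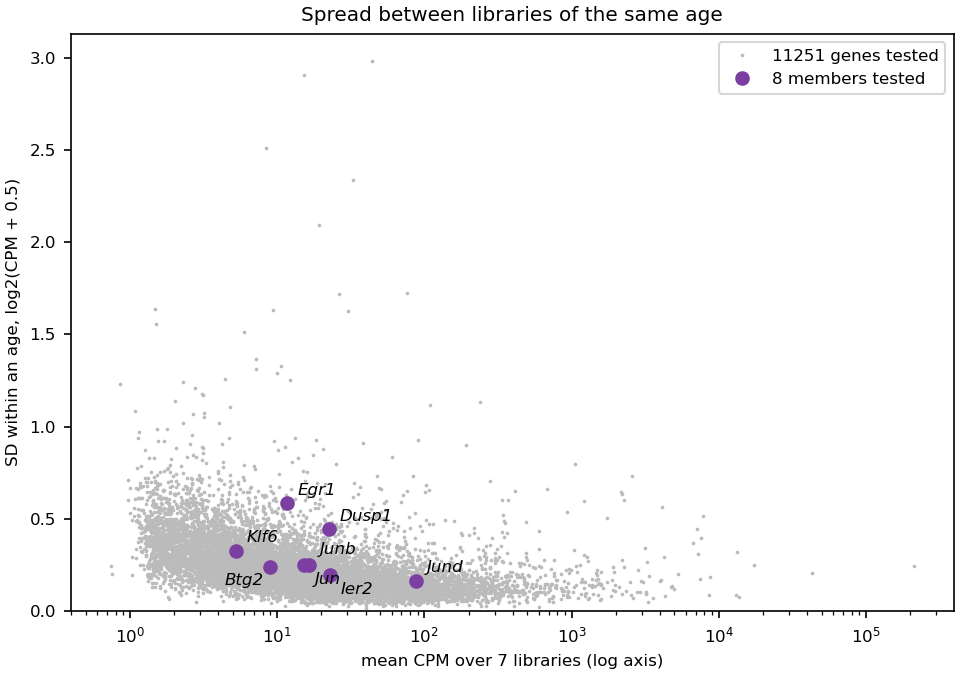
SD of log2(CPM + 0.5) within an age (vertical axis) against mean CPM over the 7 libraries (horizontal log axis) for 11251 genes tested (grey) and the 8 immediate early genes tested (purple). Egr1 at 0.58 and Dusp1 at 0.44 lie above most genes of like level, while the other 6, at 0.16 to 0.33, lie within the cloud.

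The young libraries did not order these genes in one common way, while 21-month replicate 3 was below the mean of its age for most of them. With each gene centred on its age mean, Egr1 was lowest in 3-month replicate 1 (-0.74), where Jun was highest (0.44). Klf6 was lowest in 3-month replicate 4 (-0.47), where Egr1 (0.43), Junb (0.22) and Ier2 (0.15) were above their means. Among old libraries, replicate 3 was the lowest for 8 of the 10 genes, Jun, Jund, Ier2, Btg2, Klf6, Egr1, Fos and Ier3, and replicate 2 the highest for 7. Both numbers include Fos and Ier3, which had too few counts to test: 7, 7 and 4 for Fos and 3, 3 and 1 for Ier3 in 21-month replicates 1 to 3. The shares of all genes lowest in replicate 3 or highest in replicate 2 are not given. The mean deviation over the 8 genes tested was -0.19 in 21-month replicate 3, 0.06 in replicate 1 and 0.12 in replicate 2, and -0.08 to 0.07 in the young libraries. Replicate 3 was also the library with the smallest shortfall of effective length, 21.4 bases, and the part of that shortfall in these deviations was not tested.

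**Figure D4:**
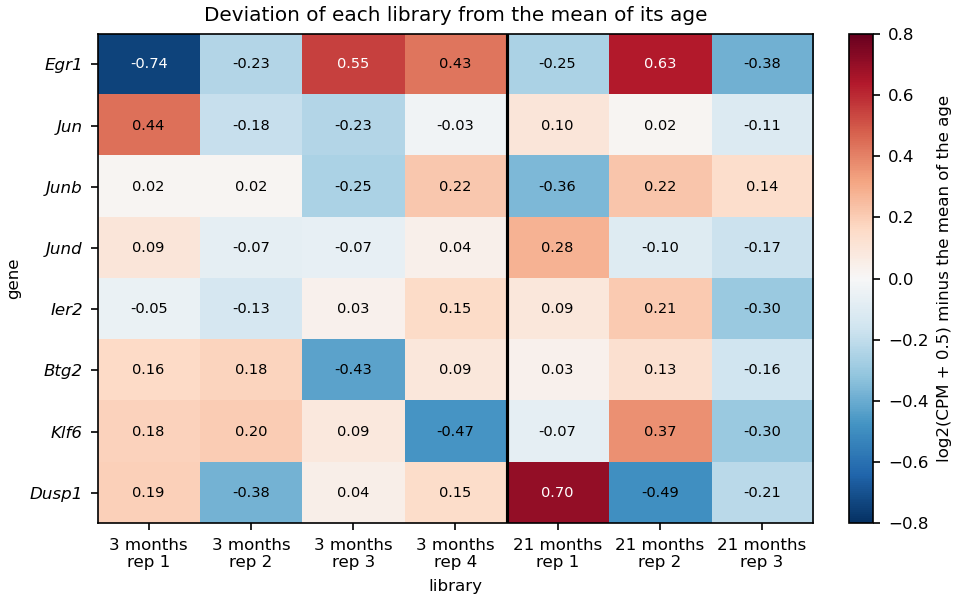
Deviation of log2(CPM + 0.5) from the mean of its age for the 8 genes tested (rows) in the 7 libraries (columns, ages parted by the black line), from blue (below) to red (above). Egr1 at -0.74 and Jun at 0.44 go opposite ways in 3-month replicate 1, Dusp1 stands at 0.70 in 21-month replicate 1, and 7 of 8 genes are below their mean in 21-month replicate 3.

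By Pearson r over the 7 libraries, age means removed, the nearest other gene of the set was Jund for Dusp1 and the reverse (0.899), Ier2 for Egr1 and the reverse (0.676), Jund for Jun (0.553), Jun for Btg2 (0.528), Btg2 for Junb (0.425) and Btg2 for Klf6 (0.194). These are the highest of several values per gene, computed on libraries that each gene shares, and serve as a description. The genes outside the set nearest to the mean of the 8, treated alike, were Zfp68, Desi1, Atxn7l3b, Qprt, Ythdf2 and Ost4 (r = 0.993 to 0.960 over 7 libraries), the top of 11243 genes ranked. With age means kept, the genes nearest to Egr1 were Lyar, a nucleolar zinc finger protein, Pprc1, a PGC-1-related coactivator, and Golga2, a Golgi matrix protein (r = 0.996, 0.995 and 0.992 over 7 libraries). Like Egr1 they fell with age: Lyar from 9.44 ± 1.55 to 4.33 ± 0.61 CPM (SD, edgeR adjusted p = 0.0027), Pprc1 from 25.7 ± 3.45 to 13.4 ± 1.48 CPM (edgeR adjusted p = 0.000944) and Golga2 from 49.6 ± 3.72 to 35.5 ± 1.89 CPM (edgeR adjusted p = 0.00859). Their choice by likeness to Egr1 sets that direction.

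A wider list of 47 other immediate early genes was read in the same fit. Of these, 15 had too few counts to test, among them Fosb, Fosl1, Atf3, Egr2, Egr3, Nr4a1, Nr4a2 and Nr4a3, strongly induced members of the same response. None of the 15 exceeded 2.23 CPM in any library, and Fosl1 and Nr4a3 had 0 counts in all 7, which allows at most 0.257 to 0.607 CPM by library. Of the 32 tested, 4 rose, 1 fell and 27 did not pass. Calls were 15.6% of the list, beside 11.3% of all genes, 5.47% higher and 5.86% lower. The fold change was positive in 22 of the 32 and negative in 10, with a median log2 fold change of 0.13. At an unadjusted p under 0.05 in edgeR's fit there were 10, of which 8 were higher and 2 lower. The 11.3% of all genes is at the adjusted threshold and is no background for these 10.

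Cebpb, a bZIP factor of the acute phase and regenerative response, rose from 32.5 to 40.6 CPM in young libraries to 53.5 to 64.7 CPM in old ones (log2 fold change 0.71 ± 0.11 SE, edgeR adjusted p = 0.00128). It was called in each of the 18 alternative fits. Zfp36l1, which binds AU-rich elements and promotes mRNA decay, rose from 120 to 125 CPM to 158 to 176 CPM (0.42 ± 0.09 SE, edgeR adjusted p = 0.00765). Nfkbiz, an inducible nuclear IκB protein, rose from 4.06 to 4.45 CPM to 6.42 to 9.04 CPM (0.91 ± 0.19 SE, edgeR adjusted p = 0.0081). Gadd45g, a growth arrest gene, rose from 2.83 to 4.93 CPM in young libraries to 5.91, 14.2 and 7.25 CPM in 21-month replicates 1 to 3 (1.33 ± 0.32 SE, edgeR adjusted p = 0.0192). In the opposite direction, Dusp6, a phosphatase specific for ERK, fell from 36.1, 30.6, 34.0 and 45.0 CPM in 3-month replicates 1 to 4 to 25.6, 21.2 and 21.5 CPM in 21-month replicates 1 to 3 (-0.67 ± 0.14 SE, edgeR adjusted p = 0.00722). The calls of Nfkbiz and Dusp6 were lost without 21-month replicate 3 (edgeR adjusted p = 0.0502 and 0.0508). The Gadd45g call failed once 3-month replicate 2 or 4 was left out (edgeR adjusted p = 0.0686 and 0.0679) and with a replicate block (0.0643). With the shortfall of effective length as a covariate, Cebpb was called and the other 4 were not (edgeR adjusted p = 0.06 to 0.133).

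Upstream of these genes, 39 of 40 listed receptors, kinases, SRF and CREB factors and AP-1 partners were tested, of which 2 fell and 2 rose. That is 10.3% of the list, near the 11.3% called over all genes. Egfr, the epidermal growth factor receptor, whose activation induces Egr1 and Fos through ERK, was at 536, 456, 473 and 532 CPM at 3 months and 183, 279 and 220 CPM at 21 months. Its old values were all below the lowest young one (log2 fold change -1.13 ± 0.13 SE, edgeR adjusted p = 0.00026), and it was called in each of the 18 alternative fits. Map2k1, the kinase that activates ERK, fell from 46.4 to 49.6 CPM to 35.6 to 40.0 CPM (-0.32 ± 0.10 SE, edgeR adjusted p = 0.0467), a call kept in 4 of 18 alternatives and lost with the replicate block (0.0656). Mkl2, an actin-regulated coactivator of SRF, rose by 0.47 ± 0.12 (SE, edgeR adjusted p = 0.0237) and Tob1, an antiproliferative relative of Btg2, by 0.44 ± 0.11 (SE, edgeR adjusted p = 0.020), called in 11 and 13 of the 18. The number rising was 0 without 3-month replicate 2, 3 or 4 or without 21-month replicate 3, 1 without 21-month replicate 2 and 4 without 21-month replicate 1, where Met and Crtc2 joined. The median log2 fold change of the list was 0.075. Chosen after its values were seen, Nab2, an EGR1 corepressor that EGR1 itself induces, was at 10.9 to 18.6 CPM at 3 months and 15.3 to 19.8 CPM at 21 months (0.30 ± 0.17 SE, edgeR adjusted p = 0.281).

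Other stimulus-responsive transcripts were read for signs of handling. The counts at an unadjusted p have no share of all genes at that threshold beside them. Of 12 heat shock genes, 3 fell and 0 rose: Hspa1b (log2 fold change -1.88, edgeR adjusted p = 0.0163), Bag3 (-0.48, 0.0107) and Hsph1 (-0.65, 0.00653), with a median of -0.33 over the list. The 3 are 25% of the list, where 5.86% of all genes were called lower. The fold change was negative in 11 of the 12, and 9 had an unadjusted p under 0.05 in edgeR's fit, 8 lower and 1 higher. Of 12 hypoxia genes tested, with a median of 0.16, 1 fell, Pfkfb3 (-0.67, edgeR adjusted p = 0.0341), and 5 had an unadjusted p under 0.05, 3 higher and 2 lower. The Pfkfb3 call was kept in 8 of 18 alternatives: it was lost with DESeq2 (adjusted p = 0.055), limma voom (0.0502), the TPM scale (0.11), the replicate block (0.095) and the shortfall covariate (0.0703), and without any one of 3-month replicates 1, 3 and 4 and 21-month replicates 1 and 3 (0.0642 to 0.102). Of 9 glucocorticoid targets tested, with a median of -0.18, 0 were called by edgeR, and 1 had an unadjusted p under 0.05, Zbtb16 (0.0235). Without 21-month replicate 2 or 3, Hspa1b was not called (edgeR adjusted p = 0.0605 and 0.0684), nor Bag3 without replicate 3 (0.0537); with the shortfall as a covariate both calls were lost (0.121 and 0.0731), and on the TPM scale those of Bag3 and Hsph1 (limma adjusted p = 0.102 and 0.0686). Whether handling plays a part in the level of Egr1 was not tested.

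Cell type markers were read in the same fit, where 5.47% of all genes were called higher and 5.86% lower. The counts at an unadjusted p have no share of all genes at that threshold beside them. Of 9 hepatocyte markers Alb rose (28740 to 43280 against 50180 to 53670 CPM) and Apoa1, an apolipoprotein, fell (5052 to 7077 against 3736 to 4767 CPM). The fold change was negative in 6 of the 9 (median -0.23), and 6 had an unadjusted p under 0.05 in edgeR's fit, of which Alb was higher and 5 were lower. Of 10 endothelial markers Lyve1 fell (3.47 to 9.44 against 1.31 to 2.65 CPM), and of 10 stellate markers Dcn rose (55.0 to 70.4 against 93.8 to 106 CPM). Among 4 bile duct markers Sox9 fell (11.9 to 19.0 against 9.85 to 10.4 CPM), and the fold change was negative in all 4, 2 of them at an unadjusted p under 0.05. That count was 1 for endothelial, 2 for stellate and 2 for B and plasma cell markers. Igj, an immunoglobulin joining chain gene and 1 of 2 tested for B and plasma cells, rose (0 to 0.547 against 3.81 to 23.5 CPM). No gene was called by edgeR among 10 Kupffer cell and macrophage markers, 0 of them at an unadjusted p under 0.05. Of the red blood cell, adipose, T and NK cell, neutrophil and exocrine pancreas markers tested (5, 2, 1, 1 and 1), 0 were called by edgeR, with 1, 1, 0, 0 and 0 at an unadjusted p under 0.05, and 8 of 10 exocrine pancreas genes were at 0 in each library.

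The summed marker level at 3 months against 21 months was 165 to 283 against 128 to 265 CPM for endothelial, 266 to 433 against 163 to 475 CPM for Kupffer cell and macrophage and 253 to 313 against 275 to 424 CPM for stellate markers, all with overlap. The sums did not overlap for hepatocyte markers (66220 to 78710 against 82900 to 88730 CPM) and bile duct markers (32.4 to 46.9 against 29.2 to 31.8 CPM). The hepatocyte sum rests on Alb: without it the other 8 summed to 34370 to 37470 CPM at 3 months and 31290 to 35220 CPM at 21 months, with overlap. The part of either list in the fall of Egr1 was not tested.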

How the data were processed

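Per the file headers, the authors deposited 1 table per library with estimated counts named expected counts (86.5% whole), TPM, FPKM and gene lengths. TPM, as deposited by the authors, gave levels between genes and 1 alternative fit. FPKM, deposited by the authors, was not used, and the lengths served only for the shortfall of effective length. The submitters' processing notes name TopHat, RSEM, edgeR and the build mm9; their versions are not stated there. Per the labels' protocols, libraries were strand-specific, from mRNA-enriched RNA and amplified by PCR, with no molecular identifiers named. The exact counting intervals of Fos and Ier3 and the floors therefore cover counting error only. Intervals of log2 fold changes rest on the SE of the edgeR fit, which also takes in the spread between libraries.

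Expected counts were rounded and filtered with filterByExpr (minimum count 10, total 15; 11251 genes kept), scaled by TMM and tested with edgeR 4.0.16 (robust quasi-likelihood) in R 4.3.3. SE is the log2 fold change over the root of F. Alternatives used DESeq2 1.42.0 and limma 3.58.1, and figures matplotlib 3.10.9; the fit was tested on simulated data. Named genes were all 10 genes, called genes of each list, and those nearest in pattern. Nab2 is marked as chosen after its values were seen. The genes and lists were chosen with earlier results of these data known, and some list symbols were changed to the tables' older names once these were read. Named genes of handling and marker lists were up to 3 called. Named outside these rules, without a mark, were Zbtb16, the genes of the adipose list, Met, Crtc2 and untested genes of the wider list. Deviations from age means of same-numbered libraries correlated at 0.110, 0.176 and 0.108, each over 0.1, and a replicate block was fitted as an alternative. The hint of pairing is weak and no label supports it: 3-month replicate 4 and 21-month replicate 1 correlated at 0.157.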

Additional observations from a re-analysis of the deposited data

How the results depend on the processing

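Across 18 alternatives, 0 of these genes rose in any, and 1 fell in each except with the shortfall of effective length as a covariate, where 0 fell. The number falling was 1 in each fit without 1 library. With that covariate, genes called over all fell to 179 higher and 153 lower, from 615 and 659, the wider list to 1 higher and 0 lower, and the upstream list to 0 higher and 1 lower. On the TPM scale 166 genes were called lower and 71.4% of calls were higher, against 48.3% with TMM; there the upstream list had 1 higher and 1 lower. It had 1 lower also with RLE scaling, library-size scaling, DESeq2, no filter on low counts, and Rn45s and Lars2 removed. With the replicate block, which assumes pairing by replicate number, it had 1 lower, all genes had 560 higher and 515 lower, and the log2 fold change of Egr1 was -2.43 (edgeR adjusted p = 0.00409); beside Gadd45g, Map2k1 and Pfkfb3 the block changed no other call among the 10 genes or the named genes of the wider, upstream and handling lists (marker genes were not refitted). Without 1 library in turn, calls over all genes were 330 to 742 higher and 250 to 900 lower, the wider list 3 to 6 higher and 0 to 1 lower, and the upstream list 0 to 4 higher and 1 to 2 lower. The median SD within an age of the 8 genes was 0.24 to 0.27 in 10 alternatives chosen after seeing the data. The cause of these changes was not tested. Depth limits Fos and Ier3, with 35 and 24 counts in all.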
